A study of Homo sapiens with 3 samples.

Results

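The factors that assemble on MHC gene promoters were described across a pooled CRISPR knockout screen for MHC class I (MHC-I) in K-562 cells, an established human leukaemia line with little MHC-I on its surface. The members were every single guide RNA (sgRNA) whose deposited name gave *RFX5*, *RFXAP*, *RFXANK*, *NLRC5*, *CIITA*, *NFYA*, *NFYB*, *NFYC*, *CREB1* or *ATF1* as its gene. They were 93 sgRNAs against 10 genes, among 189398 gene-targeting sgRNAs against 20381 genes. All cells expressed the nuclease Cas9 and carried sgRNAs of the Bassik human knockout library, delivered with 0.3 infectious viral particles per cell, and puromycin (1 μg/mL) was present for 72 h from 48 h after infection. Each of the 3 groups was 1 library. The HLA-B high sorted cells came from the high screen, in which interferon-γ (IFN-γ) at 1 ng/mL was given 24 h before sorting, and were enriched for surface HLA-B by sorting on days 18 and 25. The high-screen control and the low-screen control were unsorted cells from the high screen and from the low screen, whose sorted cells received IFN-γ at 25 ng/mL and were taken on days 7 and 15. The sources give neither the day on which an unsorted pool was harvested nor whether it was pulsed with IFN-γ. The title of the low-screen control and the name of its deposited data name different antibodies, and the antibody meant was not settled.

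MHC class I and class II promoters share a short upstream module that is read by an enhanceosome. In this complex the RFX trimer of RFX5, RFXAP and RFXANK binds the X1 box, CREB1 or ATF1 binds the neighbouring X2 box, and the NF-Y trimer of NFYA, NFYB and NFYC binds the Y box through its CCAAT core. These factors bind DNA but need a coactivator of the NLR family, which does not bind DNA by itself. NLRC5 serves class I genes and CIITA chiefly class II genes, and IFN-γ induces both. Inherited loss of an RFX subunit or of CIITA causes bare lymphocyte syndrome, in which MHC class II is missing from the cell surface. NF-Y and CREB1 also act at many other promoters.

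The HLA-B promoter is shown because HLA-B was the protein on which the cells were sorted, and because it carries the module that the members read. In the RefSeq sequence of GRCh38.p14, on the minus strand at chr6:31357216-31357310, it holds the X2 core (TGACG) and 3 copies of the NF-Y core (CCAAT), of which the 2 nearest the X2 core are inverted. Capitals mark these cores.
HLA-B promoter: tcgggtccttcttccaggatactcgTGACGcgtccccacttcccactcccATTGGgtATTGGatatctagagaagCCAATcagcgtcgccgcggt
The X2 core began at position -106 from the gene start, the inverted NF-Y cores at -81 and -74, and the direct copy at -56. Searched on both strands of 35116 RefSeq promoters of 300 bases, CCAAT was present in 34.6%, TGACG in 24.6% and both in 8.69%. A TGACG followed by an inverted CCAAT with 15 to 25 bases between them, a spacing chosen after the HLA-B sequence was read, was present in 0.447% of promoters. Of the 8 class I pathway genes with a promoter in the table, *HLA-B*, *HLA-C* and *B2M* held this arrangement, with 20, 20 and 21 bases between the cores. None of the 8 class II pathway genes with a promoter there held it. A match of letters is a description of sequence and not evidence of binding.

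The deposited files give sgRNA counts without sgRNA sequences. For *RFX5*, whose sgRNAs gave the most uniform result, the study's separate follow-up sgRNAs are shown to place a cut in the gene. They are not library sgRNAs, and no count belongs to them. Lower case is the protospacer and capitals are the adjacent motif read from the GRCh37 genome.
RFX5 sgRNA 1: gagcctctgaagaagggTGG
RFX5 sgRNA 2: tgctgagtgggcggcaacAGG
Both match the plus strand of chromosome 1, against the direction of *RFX5*, with protospacers at chr1:151318695-151318711 and chr1:151316972-151316989. The cut sites fall in coding sequence, in exon 3 and exon 7 of the canonical transcript. In GRCh37 *RFX5* spans chr1:151313116-151319802 on the minus strand, and all 10 members are annotated as protein-coding.

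The 3 libraries differed in depth and in how many sgRNAs they held. The sorted cells gave 34266318 matched reads, the high-screen control 22562241 and the low-screen control 98426251. Only 49.6% of sgRNAs were seen in the sorted cells, against 97.7% and 93.4% in the unsorted pools. The ratio of the sorted cells to the high-screen control, after both were scaled to the same total and given a pseudocount of 1, was therefore low for most sgRNAs, with a median log2 ratio of -4.64 over the 174244 gene-targeting sgRNAs with at least 10 control reads, and -4.49 over 6257 safe-targeting sgRNAs, which cut sites with no annotated function. An sgRNA with 0 sorted reads has a ratio set by its control reads alone. This was so for 48.5% of all ranked sgRNAs and for 53 of 89 member sgRNAs (59.6%). A count of 0 in the sorted library allows up to 3 reads, or 0.0875 CPM (counts scaled to 1000000 matched reads). These limits and the intervals below cover counting error only, since PCR reads were counted with no molecular identifiers and each group is 1 library.

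*RFX5*, which encodes the DNA-binding subunit of the RFX trimer, was almost absent from the HLA-B high sorted cells. The sorted reads of its 10 sgRNAs, in order of their library number, were 0, 0, 1, 0, 0, 0, 2, 0, 1 and 0. The same sgRNAs had 0, 84, 105, 52, 21, 89, 450, 140, 424 and 32 reads in the high-screen control. In the low-screen control they had 155, 134, 275, 544, 81, 273, 553, 341, 1043 and 376 reads. No *RFX5* sgRNA reached 3 sorted reads, whereas 9 of 10 had more than 20 reads in the high-screen control and all 10 had more than 80 in the low-screen control. Summed over sgRNAs, *RFX5* had 0.117 CPM in the sorted cells and 61.9 CPM in the high-screen control, a 530-fold difference. For 1.93% of genes this summed ratio was lower still. The 4 sorted reads behind the *RFX5* value have an exact 95% Poisson interval of 1.09 to 10.2 reads.

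All 9 ranked *RFX5* sgRNAs had a log2 ratio below -1 against the high-screen control, with a median of -6.74 and a range of -8.19 to -4.78. Relative to the median of all gene-targeting sgRNAs it stood at -2.10, and 3.12% of genes had a lower one. Genes were scored with redundant siRNA activity (RSA), which asks whether the sgRNAs of a gene lie closer to an end of the ranked list than their number would give, and the call rule needed an RSA p under 0.001 and 4 or more sgRNAs up to the best rank. *RFX5* had an RSA p of 0.00159 for depletion and was not called, and its p from the exact null of the score, adjusted over all genes, was 0.797. Each such p measures agreement among sgRNAs in these libraries and not between replicates. Among 6281 genes with 9 ranked sgRNAs, 1.15% had, as *RFX5* did, no sgRNA at 10 or more sorted reads. Without a minimum of control reads, *RFX5* passed the call rule with an RSA p of 0.000889 and an exact adjusted p of 0.751. In that setting 97 genes were called depleted, beside 84 in the main setting.

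*RFXANK*, the ankyrin-repeat subunit that bridges the RFX trimer to its partners, was low in 6 of 9 sgRNAs and kept 3. Its sorted reads were 0, 0, 316, 0, 0, 26, 0, 0 and 139, beside 94, 144, 370, 91, 129, 28, 120, 154 and 284 in the high-screen control. The 3 sgRNAs that remained had log2 ratios of -0.83, -0.68 and -1.63, so none of the 9 was more abundant in the sorted cells than in the control. The median log2 ratio was -6.90, the lowest of the 10 members. Of the 9 sgRNAs 7 were below -1, where 70.8% of all ranked gene-targeting sgRNAs were. Among 6281 genes with 9 ranked sgRNAs, 39.3% had 3 or fewer at 10 or more sorted reads, as *RFXANK* did. *RFXANK* had an RSA p of 0.00286 for depletion and an exact adjusted p of 0.824, and was not called. It passed the rule only when the most extreme sgRNA of every gene was left out, with an RSA p of 0.000846. The exact adjusted p was then 0.363. In that setting 187 genes were called depleted, beside 84 in the main setting.

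*RFXAP*, the RFX-associated subunit, had sorted reads on 2 of 8 sgRNAs, 30 and 223, and 0 on the other 6. Its control reads were between 16 and 173. The sgRNA with 223 sorted reads held 88.1% of the gene's reads and was the only sgRNA of the RFX trimer above a log2 ratio of 1, at 1.19. The median log2 ratio was -4.93, which relative to all gene-targeting sgRNAs was -0.30, and 0.126 with a pseudocount of 5. Over the 3 RFX genes, 5 of 26 ranked sgRNAs (19.2%, exact 95% interval 6.55 to 39.4%) had at least 10 sorted reads, and 23 of 26 (88.5%) had a log2 ratio below -1. The shares over all ranked gene-targeting sgRNAs were 43.5% and 70.8%, and the first lies outside the interval. This rested on *RFX5*, since *RFXAP* and *RFXANK* alone gave 5 of 17 (29.4%, exact 95% interval 10.3 to 56.0%), an interval that holds the 43.5%. sgRNAs against 1 gene share a target and are not independent samples.

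**Figure D1:**
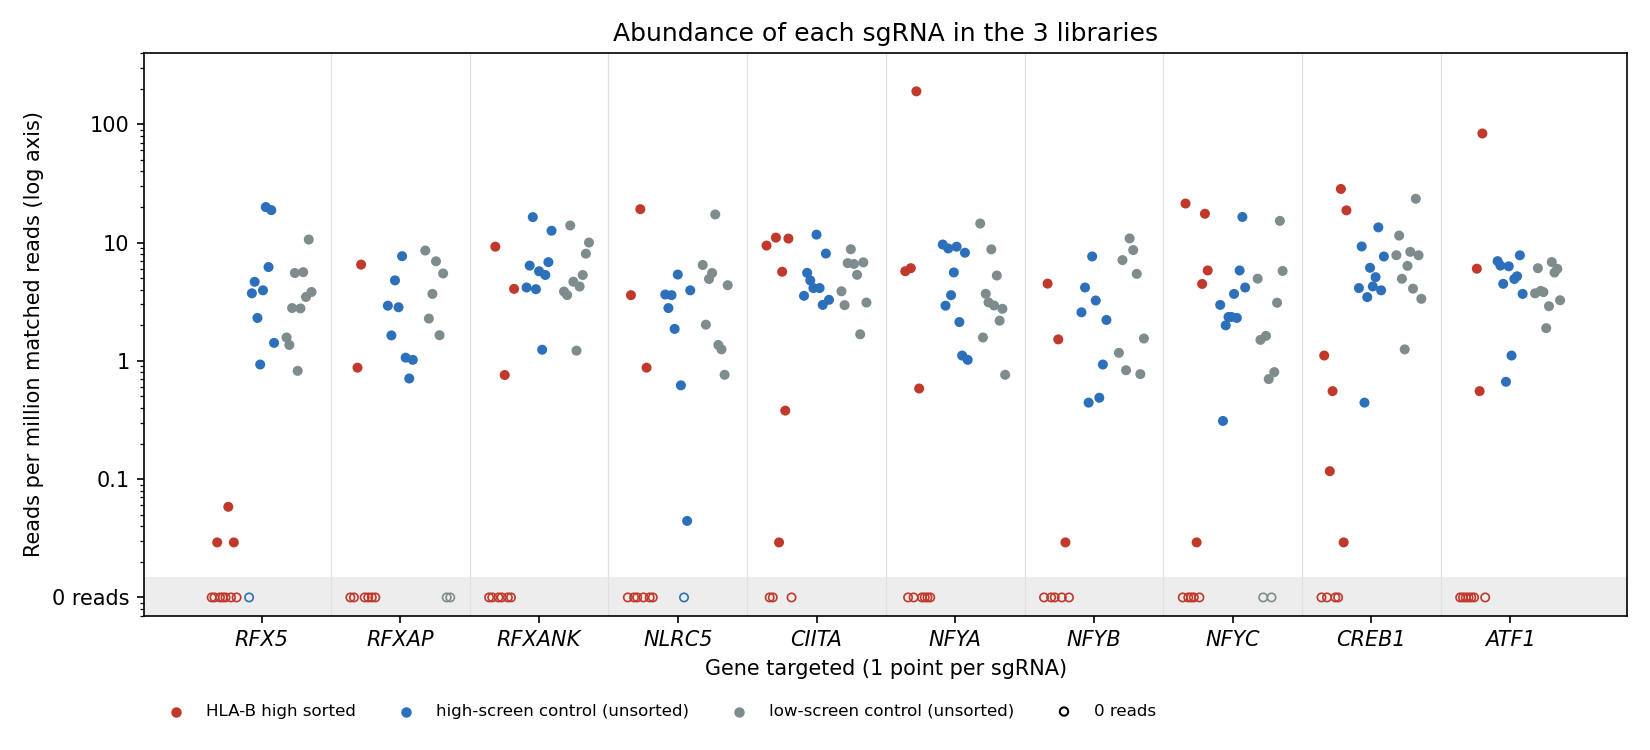
CPM (log axis, with 0 reads drawn in the grey band) for each sgRNA against the 10 genes in the 3 libraries; each point is 1 sgRNA. The 10 *RFX5* sgRNAs sit at 2 reads or fewer in the HLA-B high sorted cells, while the other 9 genes each have at least 1 sgRNA above 100 sorted reads.

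The coactivators differed in how many sgRNAs remained. *NLRC5*, the class I coactivator, had sorted reads of 0, 123, 0, 0, 656, 0, 30, 0 and 0. In the high-screen control its sgRNAs had 82, 63, 81, 42, 121, 14, 0, 1 and 89 reads, so 7 of 9 could be ranked. The ranked sgRNAs with 123 and 656 sorted reads had log2 ratios of 0.36 and 1.83, and the other 5 lay between -6.82 and -4.22. The gene's median was -5.75 and its summed abundance was 1.08-fold that of the control, or 0.271-fold without the sgRNA with 656 reads. The sgRNA with 30 sorted reads had 0 control reads, and the other 6 *NLRC5* sgRNAs had 0 sorted reads. *NLRC5* had an RSA p of 0.197 for depletion, with an exact adjusted p of 0.977.

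*CIITA*, the class II coactivator, had the highest median of the 10 members, at -2.86. Its sorted reads were 323, 0, 0, 377, 1, 194, 13, 370 and 0, beside 80, 125, 108, 93, 263, 93, 67, 182 and 74 in the high-screen control. Of its 9 sgRNAs, 4 were above their control level, with log2 ratios of 0.42 to 1.41. The summed abundance was 37.3 CPM in the sorted cells and 48.1 CPM in the control, 0.776-fold. No sgRNA held more than 29.5% of the gene's sorted reads, where the median over 18703 genes with at least 100 sorted reads was 59.8%. Relative to all gene-targeting sgRNAs the median stood at 1.78, and at -0.07 once every gene lost its most extreme sgRNA.

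At least 10 sorted reads were found for 4 of 10 ranked *NFYA*, 2 of 8 *NFYB* and 3 of 9 *NFYC* sgRNAs. For *NFYA*, the subunit that contacts the CCAAT core, the sorted reads were 196, 0, 208, 0, 6500, 20, 0, 0, 0 and 0. The sgRNA with 6500 sorted reads had 126 reads in the high-screen control and a log2 ratio of 5.08, and 0.112% of ranked sgRNAs had more sorted reads. It carried 93.9% of the gene's sorted reads, and without it the summed abundance of *NFYA* went from 3.86-fold to 0.265-fold of the control. Such dominance was common in the sorted cells, since 11.9% of genes with at least 100 sorted reads had over 90% of them on a single sgRNA. The other 9 *NFYA* sgRNAs all had log2 ratios below 0.

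*NFYB*, a histone-fold subunit, had sorted reads of 154 and 52 on 2 of 8 sgRNAs, 1 read on another and 0 on 5. Its median log2 ratio was -3.90 and its summed abundance 0.279-fold of the control. *NFYC*, the histone-fold partner of NFYB, had sorted reads of 732, 600, 199 and 153 on 4 of 10 sgRNAs, 1 read on another and 0 on 5. The sgRNA with 732 sorted reads had 7 reads in the high-screen control and was not ranked there. The 3 ranked *NFYC* sgRNAs with more than 100 sorted reads had log2 ratios of -0.38, 0.09 and 0.48, close to their control level, and the other 6 lay between -6.42 and -5.85. Over the NF-Y trimer 9 of 27 ranked sgRNAs (33.3%, exact 95% interval 16.5 to 54.0%) had at least 10 sorted reads, and the interval holds the 43.5% of all ranked sgRNAs.

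*CREB1* and *ATF1* encode related bZIP factors of the X2 box. *CREB1* had sorted reads of 972 and 641 on 2 of 10 sgRNAs, with log2 ratios of 1.08 and 1.29. Its other sorted reads were 38, 19, 4 and 1, and 4 sgRNAs had 0. *ATF1* had sorted reads of 2862, 206 and 19 on 3 of 10 sgRNAs and 0 on 7, as many as *RFX5*. The sgRNA with 2862 reads had a log2 ratio of 3.41 and held 92.7% of the gene's sorted reads, and without it the summed abundance of *ATF1* went from 1.90-fold to 0.166-fold of the control. Median log2 ratios were -4.14 for *CREB1* and -5.87 for *ATF1*. RSA p for depletion was 0.151 for *CREB1* and 0.0487 for *ATF1*, with exact adjusted p of 0.973 and 0.953.

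**Figure D2:**
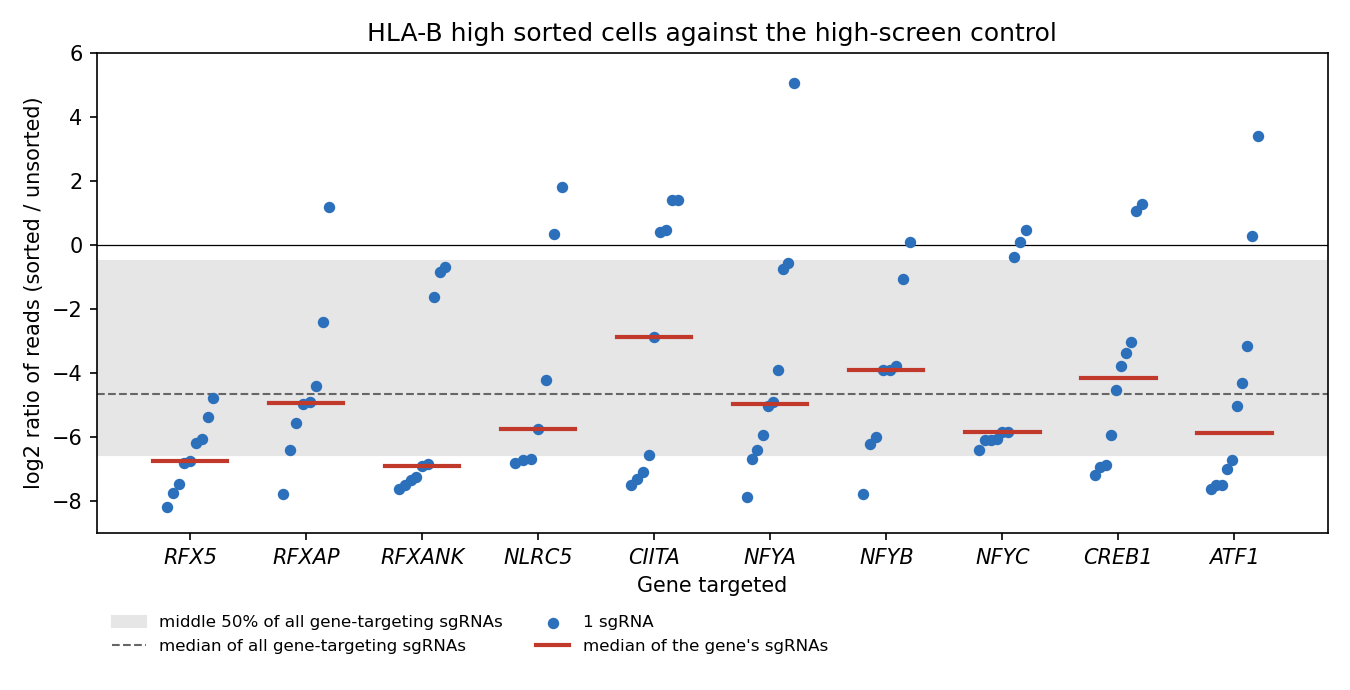
Log2 ratio of the HLA-B high sorted cells over the high-screen control for each ranked sgRNA (points) with the median of each gene (red line); the grey band is the middle 50% of all gene-targeting sgRNAs and the dashed line their median, -4.64. *RFX5* has no sgRNA above -4.78, and *CIITA* has the highest median, -2.86.

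Against the high-screen control, 0 of 10 members were called enriched and 0 of 10 depleted, where 0.546% and 0.414% of the 20314 ranked genes were called. By sgRNA, 8 of 89 (8.99%) lay above a log2 ratio of 1 and 69 of 89 (77.5%) below -1, beside 12.6% and 70.8% of all gene-targeting sgRNAs. When the libraries were scaled so that the median safe-targeting ratio was 1, these shares became 30.3% above and 51.7% below, beside 42.7% and 41.3% of all gene-targeting sgRNAs. At least 10 sorted reads were found for 28 of 89 ranked sgRNAs (31.5%, exact 95% interval 22.0 to 42.2%), beside 43.5% of all. The interval treats sgRNAs that share a target gene as independent, which they are not, so it does not test the members as a group. The 43.5% takes no account of control reads. Among all ranked sgRNAs with control reads in the range of a member's own, the share ran from 33.7% for *NLRC5* to 49.3% for *CIITA*. *RFX5* was the only member with no sgRNA at that level, as were 1.29% of the 18285 genes with 7 or more ranked sgRNAs. *RFX5* contributed 9 of the 61 sgRNAs below 10 sorted reads.

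**Figure D3:**
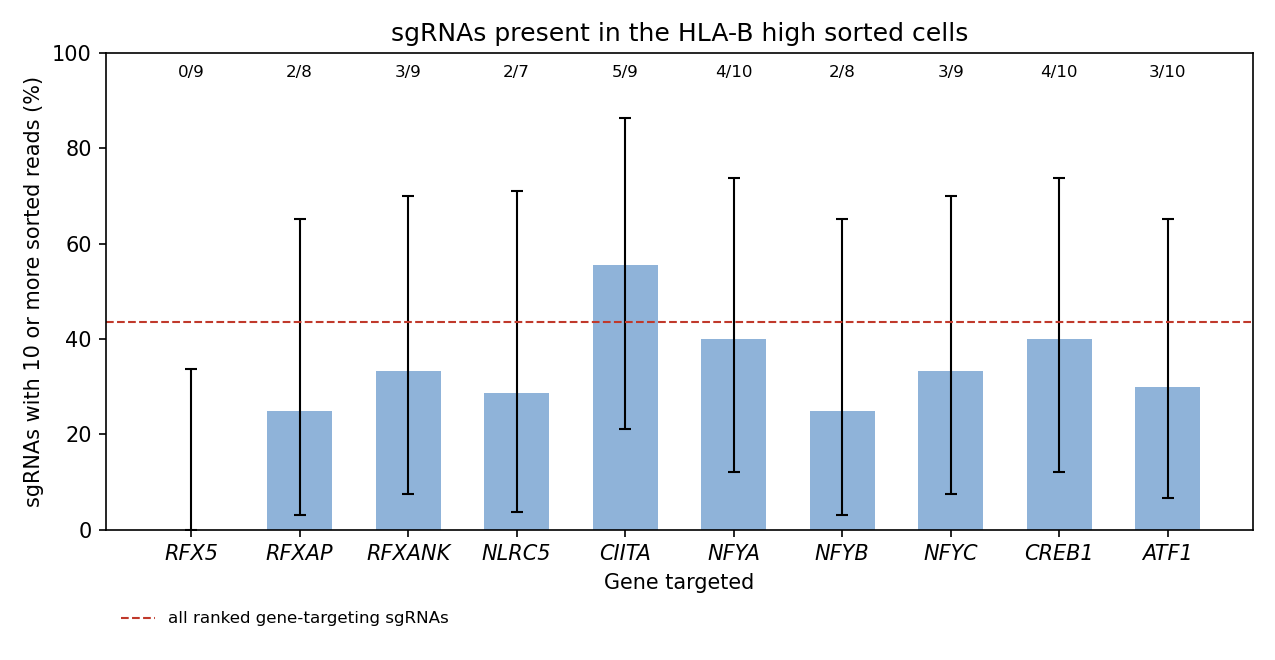
Percent of each gene's ranked sgRNAs with 10 or more reads in the HLA-B high sorted cells, with exact 95% binomial intervals over sgRNAs and the counts above the bars; the dashed line is the share of all ranked gene-targeting sgRNAs, 43.5%. *RFX5* has 0 of 9 with an upper limit of 33.6%, below the dashed line, and the intervals of the other 9 genes include it. The intervals treat sgRNAs of 1 gene as independent. Among 6281 genes with 9 ranked sgRNAs, 1.15% also had none at this level.

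The same sorted cells were then set against the low-screen control, which is 4.4 times as deep as the high-screen control. The sorted library is shared by both comparisons, so they are not independent. *RFX5* was called depleted, the only member called in any comparison of the libraries. All 10 *RFX5* sgRNAs were ranked and below -1, with a median log2 ratio of -7.13 and a range of -8.52 to -5.80, and the summed abundance was 329-fold lower in the sorted cells. The median over all ranked gene-targeting sgRNAs was -5.71 in this comparison, and 19.6% of genes had a lower median than *RFX5*. For 2.16% of genes the summed ratio was lower. *RFX5* had an RSA p of 0.000808 and an exact p adjusted over all genes of 0.768. The call ended with a pseudocount of 5, where the RSA p was 0.00176.

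Of 25 ranked sgRNAs of the RFX trimer, 23 (92.0%) were below -1 and 0 above 1, where 71.5% of all gene-targeting sgRNAs were below -1. *RFXANK* had the lowest median of the members, -7.90, with 8 of 9 sgRNAs below -1, and *RFXAP* had a median of -7.02 with 5 of 6. RSA p for depletion was 0.0441 for *RFXANK* and 0.184 for *RFXAP*, with exact adjusted p of 0.942 and 0.968, and 22.2% of genes had a lower median than *RFXAP*. *NLRC5* had a median of -6.51 with 6 of 9 below -1. *CIITA* again had the highest median, -2.10, followed by *NFYC* at -2.78, whose sgRNA with 732 sorted reads was ranked here at 3.82. *CREB1*, *NFYA*, *NFYB* and *ATF1* had medians of -5.47, -6.20, -6.05 and -7.68.

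Members called depleted against the low-screen control were 1 of 10, where 0.596% of 20295 ranked genes were called, and members called enriched were 0 of 10, where 0.65% were. By sgRNA, 5 of 89 (5.62%) lay above 1 and 69 of 89 (77.5%) below -1, beside 13.2% and 71.5% of all gene-targeting sgRNAs. Scaled to a median safe-targeting ratio of 1, the shares were 36.0% and 50.6%, beside 44.4% and 41.9% of all. Before that scaling, 72.9% of 6260 safe-targeting sgRNAs were also below -1, so loss from the sorted cells was as frequent without a gene target. Why safe-targeting sgRNAs were lost was not tested. For a gene, loss through a lower level of surface HLA-B and through slower growth during the weeks of sorting cannot be told apart in these libraries.

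The unsorted pools show how far members were represented without selection for MHC-I. *RFX5* sgRNAs had a median of 86.5 reads in the high-screen control, where safe-targeting sgRNAs had 87, and 49.5% of genes had a lower median. The summed *RFX5* abundance there, 61.9 CPM, exceeded that of 81.7% of genes. Of the 1397 reads behind it, 450 lay on 1 sgRNA and 424 on another. In the low-screen control the *RFX5* median was 308 reads against 413 for safe-targeting sgRNAs. Its summed abundance in that pool, 38.4 CPM, exceeded that of 33.7% of genes. *RFX5* sgRNAs were therefore near the typical abundance of the high-screen control while nearly absent from the sorted cells. In the high-screen control medians of the other members ran from 50.5 reads for *RFXAP* and 54 for *NFYB* to 114 for *ATF1* and 129 for *RFXANK*. In the low-screen control they ran from 154 for *NFYC* to 696.5 for *CREB1*, whose sgRNA median exceeded that of 94.7% of genes.

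No member was called low in abundance, by the same rule applied to counts within a pool, in either unsorted pool, where 1.97% of genes were called in the pool of the high screen and 2.01% in that of the low screen. *NFYC* came nearest in the low-screen control, with 0 reads on 2 of 10 sgRNAs, a median 0.373 times that of safe-targeting sgRNAs and an RSA p of 0.0144, with an exact adjusted p of 0.805. The check list of 12 growth-essential genes, which includes ribosomal, proteasomal, replication, transcription and splicing genes, gave 13 entries because *PSMA1* appears under 2 gene identifiers. All 13 had medians below that of all genes in both pools, and 5 of 13 were called low in the low-screen control and 0 of 13 in the high-screen control. Representation in the plasmid library was not analysed here.

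The 2 unsorted pools were compared directly, as a difference that involves no sort. *NLRC5* had the lowest median log2 ratio of the members, -1.11, where 3.49% of genes had a lower one. Its reads were 82, 63, 81, 42, 121, 14, 0, 1 and 89 in the pool of the high screen. The corresponding reads of the low-screen control were 636, 199, 484, 544, 1700, 134, 123, 75 and 429. Of its 9 sgRNAs, 8 were lower in the high-screen control after scaling, 5 were below -1 and 0 above 1. The summed abundance was 21.9 CPM against 43.9 CPM, 2.01-fold lower. The RSA p for depletion was 0.0117 and the exact adjusted p 0.838, so the difference was not called.

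*NFYC* had the highest median between the pools, 0.71, with 4 of 10 sgRNAs above 1. The 2 *NFYC* sgRNAs with the highest ratios, 6.93 and 7.80, had 45 and 83 reads in the high-screen control but none in the low-screen control. *RFXAP* likewise had 2 sgRNAs with 16 and 23 reads in the high-screen control but none in the low-screen control. *RFX5* had 1 sgRNA in the opposite state, with 0 reads against 155, while its summed abundance was 1.61-fold higher in the high-screen control. *NFYB* and *CREB1* had medians of -0.64 and -0.55, and *RFXAP*, *RFXANK*, *CIITA*, *NFYA* and *ATF1* lay between -0.05 and 0.31.

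Between the pools, 0 of 10 members were called enriched in the high-screen control and 0 of 10 depleted, where 0.811% and 0.703% of 20341 genes were called. By sgRNA, 17 of 93 (18.3%) were above 1 and 20 of 93 (21.5%) below -1, beside 22.6% and 23.7% of all gene-targeting sgRNAs, so the members as a group differed little from the background. The pools differ in screen and may differ in day of harvest and in IFN-γ, which cannot be told apart.

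**Figure D4:**
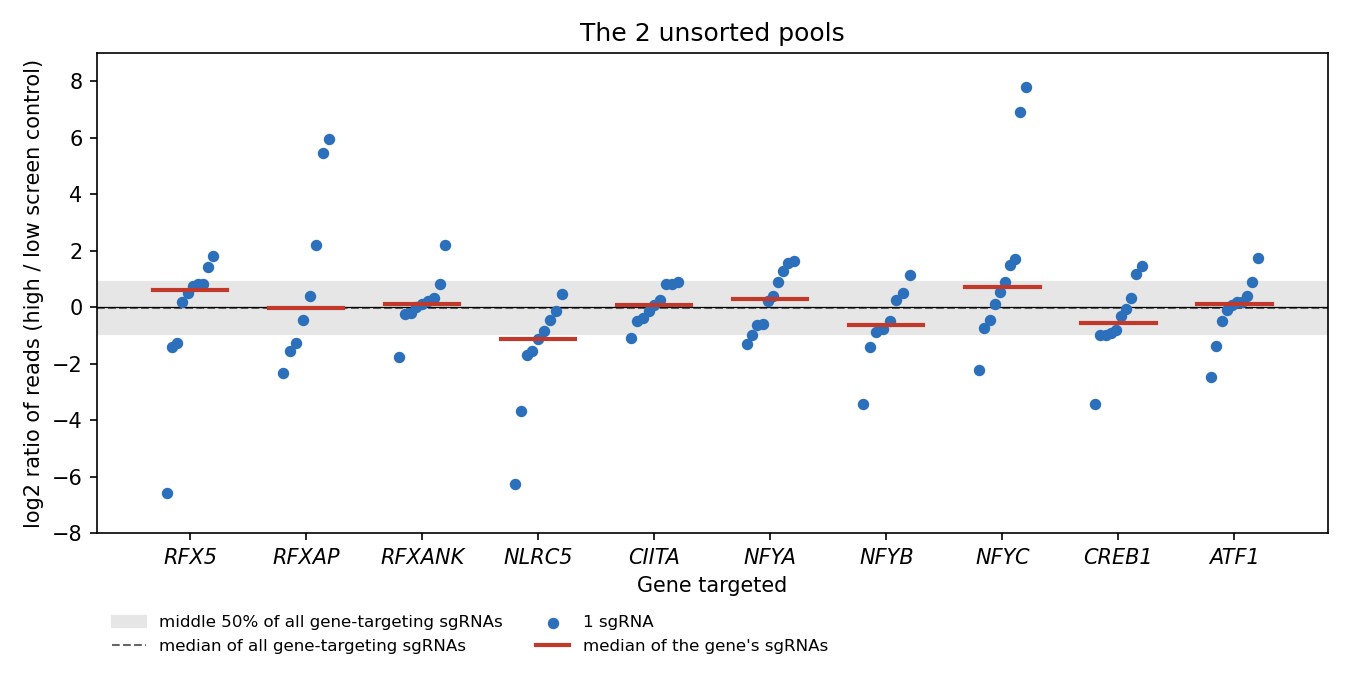
Log2 ratio of reads in the high-screen control to the low-screen control for each sgRNA (points) with the median of each gene (red line); the grey band is the middle 50% of all gene-targeting sgRNAs and the dashed line their median. *NLRC5* has the lowest median, -1.11, and *NFYC* the highest, 0.71, with 2 sgRNAs near 7 to 8 that had 0 reads in the low-screen control.

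The genes around the enhanceosome were taken as 7 further lists of 50 genes. Against the high-screen control 0 of the 49 found were called in either direction. Among the IFN-γ signalling activators, *IRF1*, which IFN-γ induces and which activates class I promoters, had the lowest median at -7.23 and *JAK1*, a receptor kinase, the highest at 1.06. The summed abundance of *IRF1* was nonetheless 1.05-fold that of the control, with 7 of 9 sgRNAs below -1 and 1 above 1. Against the low-screen control the lowest of this list was *JAK2* at -7.66, and *IRF1* stood at -6.72. Among the class I genes, *HLA-B*, the sorted protein itself, had the lowest median at -6.65, with 7 of 8 sgRNAs below -1 and 0 above 1, and *PSMB8* the highest at -1.07. *HLA-B* had an RSA p of 0.00335 for depletion and an exact adjusted p of 0.832, so the gene that encodes the sorted protein was not called either. *TAP2* was not found under that symbol.

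Lists of relatives of the members had medians nearer to or above the background. Over all genes the median of gene medians against the high-screen control was -4.54. It was -4.40 for the 7 RFX paralogs outside the enhanceosome, -3.27 for the 8 CREB and ATF relatives and CRTC coactivators, -3.33 for 6 NLR relatives of NLRC5 and CIITA, and -5.36 for the 10 members. The 5 acetyltransferases and remodeller recruited by the coactivators had a median of -2.94, and the class II genes one of -4.78. The class I genes stood at -4.45. Lists with a lower median than the members were the IFN-γ signalling activators, at -5.77, and the growth-essential check, at -5.51. *RFX8* was the lowest RFX paralog at -5.85 and *RFX7* the highest at -1.90, beside -6.74 for *RFX5* and -6.90 for *RFXANK*. This order did not hold against the low-screen control, where *RFX8* at -8.24 was lower than both and *RFX2* at -7.45 was lower than *RFX5*. The order of the lists also changed there, with the members at -6.36. The class II genes, at -6.95, and the IFN-γ signalling activators, at -6.59, were lower than the members, and the growth-essential check, at -5.90, was higher.

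Against the low-screen control, *HLA-B* was again the lowest class I gene at -8.39. *RPL3*, a ribosomal protein gene of the growth-essential check, was called depleted with all 7 ranked sgRNAs below -1 and a median of -7.72. Its RSA p was 0.000233 and its exact adjusted p 0.527. Against the high-screen control *RPL3* had an RSA p of 0.00216 and was not called. Between the unsorted pools the coactivator gene *CRTC2* was called enriched in the high-screen control, with 7 of 10 sgRNAs above 1 and a median of 1.32, and no other listed gene was called. *CRTC2* had an RSA p of 0.000973 for enrichment and an exact adjusted p of 0.566.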

How the data were processed

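The deposited files hold raw read counts per sgRNA, made by the authors without normalization. Per the study's methods, constant sequence was trimmed, reads were mapped to the sgRNA library and multi-aligning reads were dropped. Tools named in the submitters' processing notes were Bowtie2, bcl2fastq and cutadapt; versions and a genome build are not given in the sources used here. Reads matched to no sgRNA (21.9%, 20.6% and 12.1% of reads in the sorted cells, the high-screen pool and the low-screen pool) were left out, and an sgRNA not listed in a library was given 0.

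Log2 ratios were computed after scaling both libraries to their mean matched total, adding a pseudocount of 1 and keeping sgRNAs that reached 10 control reads (in either pool where the unsorted pools were compared). All gene-targeting sgRNAs were ranked and scored with RSA, one-sided from each end, with an exact null per number of sgRNAs and Benjamini-Hochberg adjustment over all genes. A call needed an RSA p under 0.001 and 4 or more sgRNAs up to the best rank. The scoring was tested on simulated data. With 1 library per group there is no spread between replicates. Binomial intervals are Clopper-Pearson at 95%.

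All 10 members were named in every comparison. A listed gene was named if it was called or was the highest or lowest of its list, apart from an item that is not reported here; *RFX2* and further values of *HLA-B* were given after they were seen, because results turn on them. The members, the lists and the tests were chosen with earlier results of these data known. Alternatives were a pseudocount of 5, no minimum or 50 control reads, dropping every gene's most extreme sgRNA, scaling to safe-targeting sgRNAs and ranking control sgRNAs too. Gene positions came from GENCODE lifted to GRCh37 and promoters from RefSeq on GRCh38.p14, and no coordinates were converted. Python 3.11.15, numpy 2.4.6, pandas 2.3.3, scipy 1.17.1, numba 0.67.0 and matplotlib 3.10.9 were used.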

Additional observations from a re-analysis of the deposited data

How the results depend on the processing

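With 1 library per group no replicate could be left out, and no paired analysis was possible because the groups compared share a single replicate number. Of the members called depleted, the count against the high-screen control went from 0 to 1 without a minimum of control reads (*RFX5*) and to 1 without the most extreme sgRNA of each gene (*RFXANK*), and the count against the low-screen control went from 1 to 0 with a pseudocount of 5. Over all genes, depleted calls against the high-screen control went from 84 to 97 and to 187 in these settings. Against the low-screen control they went from 121 to 112. Scaling by the median safe-targeting ratio changed the share of member sgRNAs above 1 and below -1 to 30.3% and 51.7% against the high-screen control and to 36.0% and 50.6% against the low-screen control. The other 57 settings of these counts and shares stayed within 1.5 times the count, or within the interval of the share. Ranking the control sgRNAs too, chosen after seeing the data, changed no call.

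Signs of medians relative to all gene-targeting sgRNAs turned for 12 of 150 settings, all of genes that were not called. Against the high-screen control these were *RFXAP* (0.126) and *CREB1* (-0.454) with a pseudocount of 5, *NFYA* (0.323), *NFYB* (-1.77) and *CREB1* (-0.298) with at least 50 control reads, and *CIITA* (-0.0679) without the most extreme sgRNA. Against the low-screen control they were *NFYA* (0.00894), *NFYB* (0.154) and *CREB1* (-0.595) with a pseudocount of 5, and *NFYA* (0.0187) and *CREB1* (-1.76) without the most extreme sgRNA. Between the pools it was *RFXAP* (0.414) without the most extreme sgRNA. The cause was not tested. The 48.5% of ranked sgRNAs with no sorted reads cannot be ordered by loss beyond their control counts.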
